A study of Homo sapiens with 6 samples.

Results

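Described here are 10 genes of the NRF2 axis and of ferroptosis defence, out of 62700 genes in a table of RNA read counts: NFE2L2, KEAP1, NQO1, HMOX1, GCLC, GCLM, TXNRD1, SRXN1, GPX4 and FTH1. They were chosen by name and matched to the table by gene identifier, and all 10 were found and had enough reads to be tested. The labels give the cells as MKN-45, an established line from a human gastric adenocarcinoma, and call the cultures of a condition independent. There were 3 control libraries, whose labels name a negative-control shRNA or siRNA while the design text calls the cultures untouched, and 3 libraries labelled NNMT knockdown by a transfected shRNA or siRNA. Cells of both groups were harvested 48 h after transfection, per the labels.

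NRF2, encoded by NFE2L2, is a transcription factor that is held at low levels by KEAP1, an adaptor that hands it to a CUL3 ubiquitin ligase for destruction. Oxidants and electrophiles modify cysteines of KEAP1, NRF2 escapes, pairs with a small MAF protein and binds antioxidant response elements near genes for glutathione synthesis, thioredoxin reduction, quinone and heme metabolism and iron storage. Ferroptosis is a form of cell death driven by iron and by peroxidised membrane lipids. GPX4 reduces such lipid peroxides with glutathione, and ferritin, built from FTH1 and FTL chains, stores iron in a form that does not catalyse them. Control of NRF2 is largely at the level of protein, so RNA levels of NFE2L2 and KEAP1 do not measure NRF2 activity.

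The core of the antioxidant response element, TGACNNNGC, was searched on both strands of the RefSeq promoter windows (GRCh38.p14), each of 300 bases from 250 before to 50 after a transcription start. Windows were found for 8 of the 10 genes and not for HMOX1 and FTH1. The core lay in windows of 3 of these 8 genes, GCLM, KEAP1 and TXNRD1, against 16.06% of all 27305 genes with a window. Per window the counts were 4 of 13, against 13.35% of all 35116 windows. A match describes letters only and is no evidence of binding. Sequence outside these windows was not searched, so a gene without a match may hold the core elsewhere. Shown are 5 of the matches, because this core is the sequence that NRF2 with a small MAF partner is known to bind. Each is printed on the strand of its gene, with the core in capitals; where the core lies on the opposite strand, its reverse complement is what stands in capitals.

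GCLM, chr1:93909445-93909474, minus strand, core beginning 34 bases before the start, with 1 of its 9 bases at the edge of the deposited gene model and the rest outside it: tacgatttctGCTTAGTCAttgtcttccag
KEAP1, chr19:10502783-10502812, minus strand, core beginning 31 bases before a start, in an exon of a longer gene model: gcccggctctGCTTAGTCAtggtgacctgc
KEAP1, chr19:10502806-10502835, minus strand, core beginning 54 bases before the same start, in an exon of a longer gene model: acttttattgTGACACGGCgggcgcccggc
TXNRD1, chr12:104286920-104286949, plus strand, core beginning 102 bases before a start, in an exon of a longer gene model: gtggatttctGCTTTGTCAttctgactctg
TXNRD1, chr12:104215670-104215699, plus strand, core beginning 99 bases before another start, outside the gene: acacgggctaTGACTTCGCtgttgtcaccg

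GCLM and KEAP1 each hold the core as GCTTAGTCA. A further TXNRD1 match, which began 8 bases before the start, is not printed.

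TXNRD1 and GPX4 are joined by another feature: both are selenoproteins, in which a TGA codon is read as selenocysteine, the reactive residue of the enzyme. The 30 bases that hold this codon, in capitals, are taken from GENCODE 29 transcripts (GRCh38, plus strand). They show its place in each reading frame, codon 73 of 197 in GPX4 and codon 648 of 649 in TXNRD1.

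GPX4, chr19:1105379-1105408: atcgtcaccaacgtggcctcccagTGAggc
TXNRD1, chr12:104348389-104348418: gcaagcatcctccaggctggctgcTGAggt

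Library totals ranged from 40558680 to 56067484 reads. NNMT, the targeted gene, had 0 to 14 reads per library (0 to 0.322 CPM, counts per 1000000 reads of the library total), so its RNA was near the detection limit in both groups and cannot check the labels. The 5 general epithelial markers were present in every library, with a summed level of 1297 to 1318 CPM in control libraries and 1262 to 1596 CPM in those labelled knockdown. In the fit described below, 1 of the 5 lay above 0 and 4 below (50.8% of all genes lay above 0), and 0 passed. Groups did not overlap in 1 of the 5, which was lower (4.88% of all genes). Of 14 gastric and intestinal markers, 7 lay below 1 CPM in every library, and CDX2, CDX1 and GKN1 had no reads. Their summed level was 98.7 to 210 CPM in control libraries and 80.6 to 154 CPM in those labelled knockdown. Of the 8 tested, 2 lay above 0 and 6 below, with log2 fold changes from -0.902 to 1.47, and 0 passed. Of 5 blood cell markers, 4 lay below 1 CPM throughout and CD3E had no reads. In bulk RNA, fewer cells of a type and less RNA per cell cannot be told apart.

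How much of each gene could be measured differed, because reads that overlap exons of more than 1 gene were not counted. The exons of KEAP1, HMOX1, GCLM, TXNRD1 and GPX4 shared no base with another gene. SRXN1 shared 90.66% of its 2528 exon bases with a gene on the same strand known only by its identifier (ENSG00000270299), which leaves 236 bases. FTH1 (chr11:61959718-61967634) shared 63.22% of its exon bases with BEST1 on the opposite strand, which leaves 737. NFE2L2 (chr2:177218667-177392756) shared 38.38% with 4 genes, HNRNPA3 and AGPS among them. The shares of NQO1 and GCLC were 19.35% and 9.677%. Levels between genes are therefore compared below as reads per kilobase of unshared exon, scaled to the library total as in CPM (unshared RPKM). Unshared exon includes rarely used exons, and reads that cross into shared exon are lost as well, so this scale is approximate, most of all for SRXN1.

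On that scale the genes spanned a wide range. FTH1, the ferritin heavy chain, was highest, at 395 ± 64 unshared RPKM (SD, n = 6 libraries of both groups), and ranked 44 among 19917 tested genes with at least 200 unshared exon bases. Its partner FTL stood at 518 unshared RPKM. TXNRD1, the cytosolic thioredoxin reductase, followed at 149.7 ± 15.8 (rank 157), and GPX4 at 68 ± 4.87 (rank 450). Levels of FTH1, TXNRD1, GPX4 and KEAP1 did not overlap one another in any library. KEAP1 stood at 28.4 ± 1.7, and the quinone reductase NQO1 at 20.2 ± 3.08. SRXN1, which repairs overoxidised peroxiredoxins, measured 16 ± 5.54, and HMOX1, the inducible heme oxygenase, 12.7 ± 1.88. The lowest were GCLC and GCLM, the catalytic and modifier subunits of glutamate-cysteine ligase, at 8 ± 0.763 and 6.9 ± 0.861, and NFE2L2 at 5.98 ± 0.481. The neighbours NQO1 and SRXN1, SRXN1 and HMOX1, GCLC and GCLM, and GCLM and NFE2L2 overlapped in their ranges over the 6 libraries, so their order is not fixed. SRXN1 also reached into the range of KEAP1, at 27.06 in replicate 2 labelled knockdown against 26.85 for KEAP1 in control replicate 3. Per base of all exons, shared ones included, SRXN1 fell to 1.49 and FTH1 to 145, just under TXNRD1 at 149.7.

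**Figure D1:**
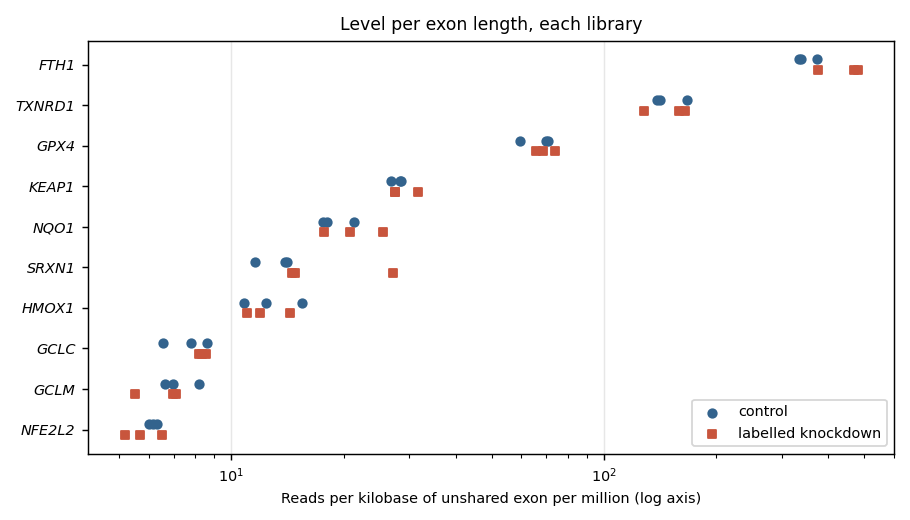
Level of each gene in each library in unshared RPKM (log axis), with control libraries as blue circles and libraries labelled NNMT knockdown as red squares. FTH1 lies highest, at 334 to 480, and NFE2L2 lowest on average, at 5.18 to 6.51.

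The design sets the labelled knockdown cultures against the controls, and the 10 genes were compared on that contrast. In edgeR's quasi-likelihood test with Benjamini-Hochberg adjustment, 0 of the 10 passed at an adjusted p under 0.05, where 0 of all 20250 genes tested (0%) passed, and each of the 10 had an adjusted p of 0.999. DESeq2 and limma-voom also called 0 of the 10. DESeq2 called 8 genes in all (0.0395%) and limma-voom called 0 (0%). Without a filter on low counts, edgeR called 72 genes (0.19%) and again 0 of the 10. Before adjustment, 1 of the 10, FTH1, had a p under 0.05 and was higher, against 1.98% of all genes higher and 2.05% lower. The fitted change lay above 0 for 7 of the 10 (50.8% of all genes), with a median log2 fold change of 0.0527 against 0.00333 over all genes. Groups did not overlap in CPM for 2 of the 10, FTH1 and SRXN1, both higher, against 4.29% of all genes higher and 4.88% lower.

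**Figure D2:**
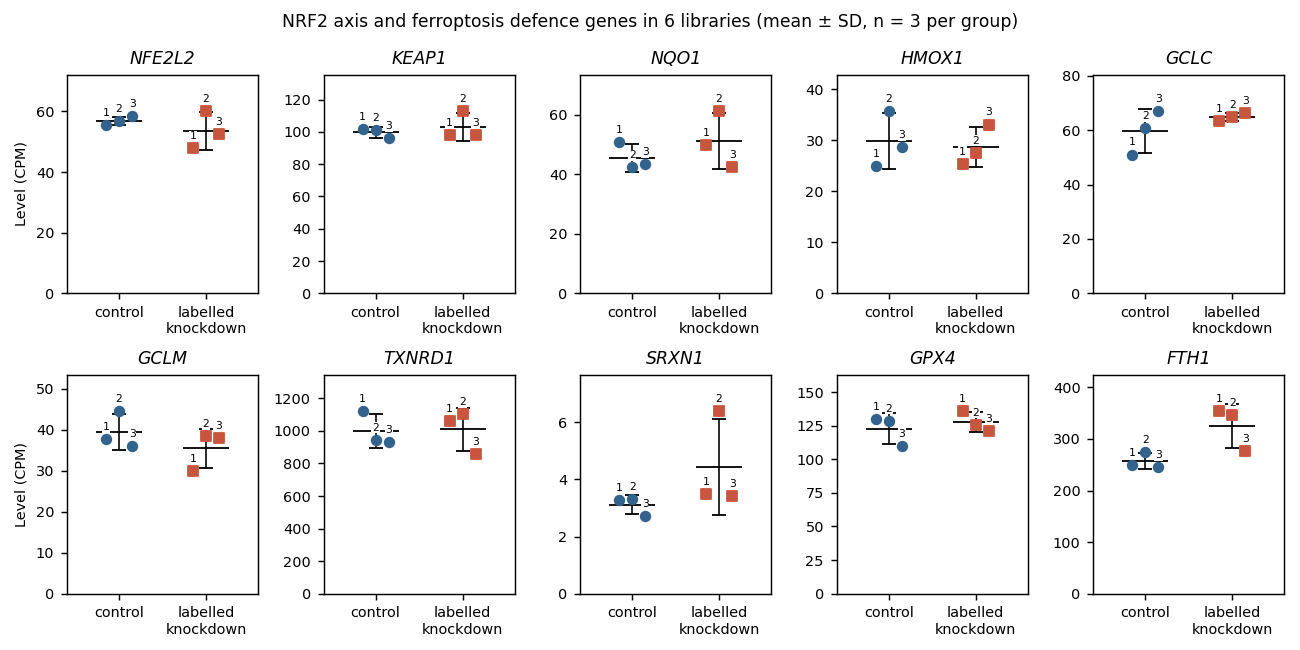
Level of each gene in CPM (axis from 0) in each library, with replicate numbers beside the points and mean ± SD (n = 3) in black. The groups are apart for FTH1 and SRXN1 and overlap for the other 8 genes.

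The regulators come first. NFE2L2 measured 55.5, 56.7 and 58.3 CPM in control replicates 1, 2 and 3 and 47.8, 60.1 and 52.5 CPM in replicates 1, 2 and 3 labelled knockdown. The labelled libraries lay on both sides of the control range. The fold was 0.942 (95% interval 0.82 to 1.08; log2 fold change -0.09, SE 0.0902). KEAP1 (chr19:10486125-10503558) was the steadiest of the 10, with 102, 101 and 95.9 CPM in control and 98.0, 113 and 98.1 CPM in the labelled libraries. Its fold was 1.03 (95% interval 0.91 to 1.17), so that a change of 1.2-fold or more in either direction lay outside the interval. The ratio of KEAP1 to NFE2L2, in unshared RPKM, was 4.75, 4.61 and 4.25 in control and 5.3, 4.85 and 4.82 in the labelled libraries. This ratio is free of library scaling, and its groups did not overlap. An exact two-sided permutation test gave p = 0.1, the smallest that 3 against 3 libraries allow (adjusted p = 0.133 over 4 ratios, which were chosen after the values were seen).

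Glutathione synthesis rests on GCLC and GCLM. GCLC (chr6:53497341-53616970) measured 51.1, 60.8 and 67.1 CPM in control and 63.5, 64.8 and 66.4 CPM in the labelled libraries. The labelled libraries lay close together, within the control range. GCLM (chr1:93885199-93909456) measured 37.7, 44.4 and 36.1 CPM in control and 29.9, 38.5 and 37.9 CPM in the labelled libraries, where replicate 1 was the lowest of all. The fold was 1.09 (95% interval 0.94 to 1.27) for GCLC and 0.899 (95% interval 0.751 to 1.08) for GCLM. The fits of the subunits thus had opposite signs, neither past a threshold. Their ratio, GCLC to GCLM in unshared RPKM, ran from 0.943 to 1.3 in control and from 1.17 to 1.48 in the labelled libraries, and these ranges overlapped (exact permutation p = 0.3).

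Of the thioredoxin arm, TXNRD1 (chr12:104215779-104350307) had the most reads, 37395 to 52168 per library. It measured 1121, 947 and 930.4 CPM in control and 1063, 1104 and 861 CPM in the labelled libraries, with a fold of 1.01 (95% interval 0.834 to 1.23). High and low libraries occurred in both groups. SRXN1 (chr20:646615-653200), known from 137 to 290 reads per library, measured 3.29, 3.32 and 2.73 CPM in control and 3.50, 6.39 and 3.43 CPM in the labelled libraries. All labelled libraries lay above all controls, but replicates 1 and 3 only narrowly, and replicate 2 stood apart. The fitted log2 fold change of SRXN1 was 0.51 (SE 0.258; fold 1.42, 95% interval 0.961 to 2.11), and it was 0.17 without replicate 2 labelled knockdown.

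That library was also the highest for NQO1. NQO1 (chr16:69706996-69726668) measured 50.9, 42.3 and 43.3 CPM in control and 49.9, 61.2 and 42.5 CPM in the labelled libraries, with a fold of 1.13 (95% interval 0.918 to 1.38). Without replicate 2 labelled knockdown its log2 fold change was 0.03, against 0.17 with all libraries. HMOX1 (chr22:35380361-35394214), a gene that NRF2 activates and the heme-regulated repressor BACH1 holds down, measured 24.9, 35.7 and 28.6 CPM in control and 25.3, 27.6 and 33.1 CPM in the labelled libraries. The labelled libraries lay within the control range, and the fold was 0.965 (95% interval 0.775 to 1.2).

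Across the 10 genes, replicate 2 labelled knockdown was the highest library for 4 (NFE2L2, KEAP1, NQO1 and SRXN1) and the lowest for 0. Control replicate 3 was the lowest for 4 (KEAP1, SRXN1, GPX4 and FTH1). The median deviation of the 10 genes from their own means, on the log2 CPM scale, was 0.14 in the former library and -0.09 in the latter. The summed level of 7 fibroblast markers was 326 to 414 CPM in control and 336 to 633 CPM in the labelled libraries. Most of that sum was COL1A1, picked out after its values were seen, at 510.2 of 633 CPM in replicate 2 labelled knockdown. Of the 7 markers 3 lay below 1 CPM in every library, and of the 5 tested 3 lay above 0, 2 below and 0 passed. The part of such differences in these values was not tested. The pooled SD within groups, on the log2 CPM scale, had a median of 0.15 over the 9 genes at 5 CPM or more and of 0.13 over all 11518 such genes.

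**Figure D3:**
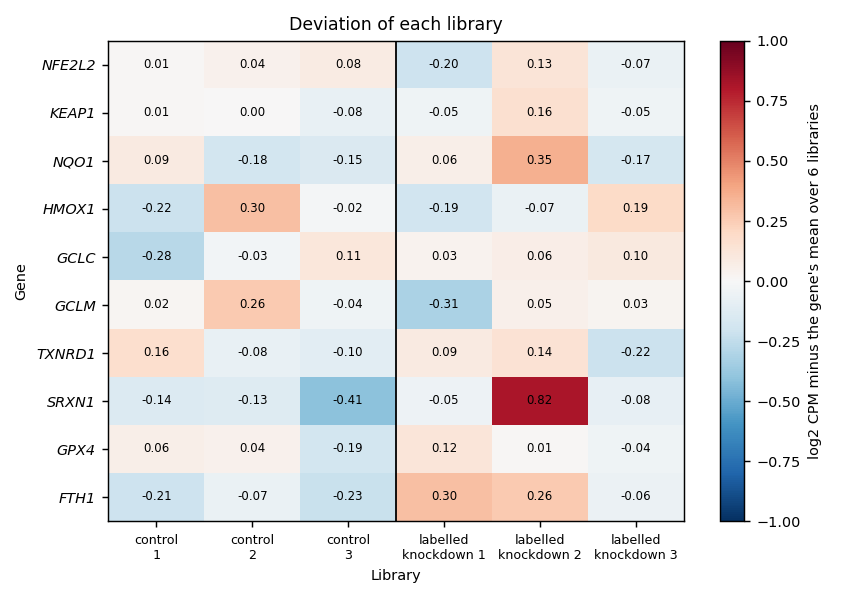
Deviation of each library's log2 CPM from the gene's mean over 6 libraries, by gene and library. The largest is that of SRXN1 in replicate 2 labelled knockdown, at 0.82, and FTH1 stands above its mean in replicates 1 and 2 labelled knockdown.

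GPX4 (chr19:1103982-1106791), the lipid peroxide reductase, measured 129.8, 129 and 109.7 CPM in control and 136, 126 and 121 CPM in the labelled libraries. The labelled range overlapped the control range, and the fold was 1.04 (95% interval 0.895 to 1.21). The table held 0 rows named as GPX4 pseudogenes, so reads lost to such copies could not be looked for.

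FTH1, the iron-storing ferritin heavy chain, had the lowest p of the 10 and measured 249, 274 and 246 CPM in control, or 256 ± 15.5 CPM (SD, n = 3). It measured 354, 345 and 276 CPM in the labelled libraries, or 325 ± 42.4 CPM (SD, n = 3). All labelled libraries lay above all controls, with replicate 3 only just above control replicate 2. The log2 fold change was 0.35 (SE 0.11), a fold of 1.27 with a 95% interval of 1.07 to 1.5. The adjusted p was 0.999, so FTH1 did not pass, and it ranged from 0.155 without a filter on low counts to 0.999 over the alternatives tried. The log2 fold change stayed between 0.26 and 0.45 when any library was left out. FTH1 has many processed pseudogenes, and the 25 rows named FTH1P held 1.05% to 2.54% of the reads of gene and pseudogenes together. FTH1P16, the most abundant, averaged 2.38 CPM, followed by FTH1P2 and FTH1P11. With their reads added to FTH1 the log2 fold change was 0.34. Reads that align equally well to several places were not counted, and how many of these came from FTH1 was not tested.

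FTL, the light chain, measured 428, 447 and 438 CPM in control and 474, 483 and 438 CPM in the labelled libraries, with a fold of 1.06 (95% interval 0.933 to 1.21). The ratio of FTL to FTH1, in unshared RPKM, was 1.45, 1.38 and 1.51 in control and 1.13, 1.18 and 1.34 in the labelled libraries. These ranges did not overlap, with the light chain lower relative to the heavy chain in the labelled libraries (exact permutation p = 0.1, adjusted p = 0.133 over 4 ratios). The ratio of FTH1 to TFRC, the transferrin receptor that brings iron into the cell, was 20.8, 21.3 and 16.4 in control and 30.6, 26.8 and 22.5 in the labelled libraries (exact permutation p = 0.1). FTH1 stands in both of these ratios and they are not independent of its own values. Both p are the smallest that 3 against 3 libraries allow, and the ratios were chosen after the values were seen.

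**Figure D4:**
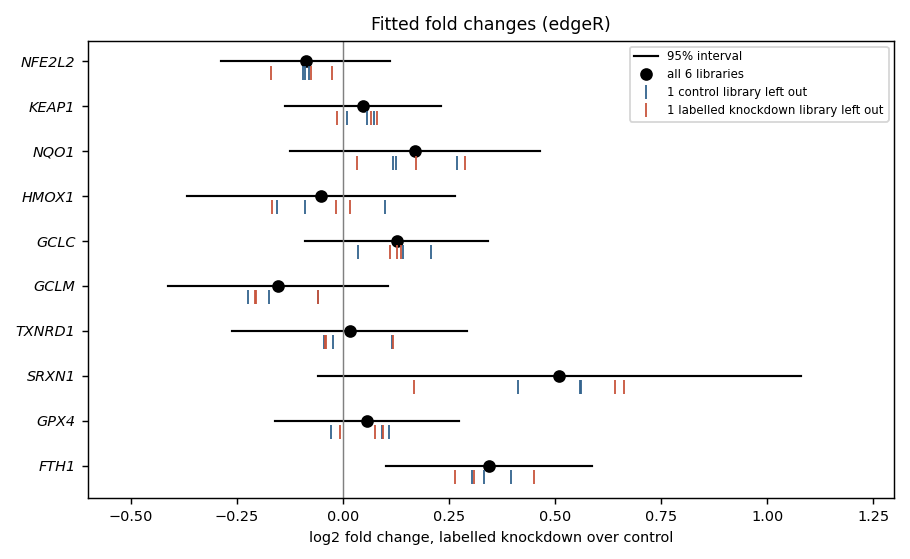
Fitted log2 fold change of each gene, labelled knockdown over control, with its 95% interval (black) and the fits that leave out 1 control (blue) or 1 labelled knockdown library (red). FTH1 alone has an interval that lies above 0, before any adjustment for the number of genes, and the fits of KEAP1, HMOX1, TXNRD1 and GPX4 change sign with single libraries.

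Among 13 partners and regulators of NRF2, 0 passed in either direction in edgeR's test over all genes, and the median log2 fold change was -0.03. Before adjustment, 1 of the 13 had a p under 0.05 and was higher (1.98% of all genes) and 2 had one and were lower (2.05% of all genes). The higher gene was MAFK, a small MAF partner of NRF2, with 154, 166 and 167 CPM in control and 199, 169.8 and 207 CPM in the labelled libraries (log2 fold change 0.25, SE 0.0973). The others were MAFG, another small MAF, with a log2 fold change of -0.20 (SE 0.0913), and NFE2L1, the NRF2 relative that drives proteasome genes, at -0.20 (SE 0.0888). The groups did not overlap in these 3 genes, named for their low p, and overlapped in the rest of the list, against 4.29% of all genes apart and higher and 4.88% apart and lower. Small MAF genes thus lay in both directions.

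Of 33 further NRF2 target genes, 30 were tested and 0 passed in either direction; 15 lay above 0 and 15 below, with a median of -0.01. Before adjustment, 0 of the 30 had a p under 0.05 and were higher (1.98% of all genes) and 3 were lower (2.05% of all genes): AKR1C2, AKR1C1 and SLC7A11. The aldo-keto reductase genes AKR1C1 and AKR1C2 had fitted log2 fold changes of -1.26 (SE 0.276) and -2.51 (SE 0.526). AKR1C1 measured 8.82, 10.1 and 5.14 CPM in control and 2.51, 3.41 and 4.14 CPM in the labelled libraries, which did not overlap. AKR1C2 was near the floor, at 1.37, 2.47 and 0.696 CPM in control and 0.197, 0.198 and 0.391 CPM in the labelled libraries. The latter rest on 8, 9 and 17 reads, so the size of its fold is uncertain. DESeq2 called both, with adjusted p of 0.0212 and 0.0258, as did edgeR without a filter on low counts. No other run called either. The adjusted p was 0.999 for both in the main test and 0.993 for both in limma-voom. AKR1C3 was at -0.05 (SE 0.196). The AKR1C genes are close paralogs whose reads can be lost or split. SLC7A11, the cystine carrier that supplies glutathione synthesis, measured 85.7, 106 and 107 CPM in control and 68.7, 73.5 and 96.3 CPM in the labelled libraries. Replicate 3 labelled knockdown lay within the control range, and the fold was 0.8 (95% interval 0.652 to 0.982; adjusted p = 0.999 in edgeR's test).

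Of 25 genes of the glutathione and thioredoxin systems, 24 were tested and 0 passed in either direction. Of the 24, 16 lay above 0 (50.8% of all genes), with a median of 0.03. Before adjustment, 1 gene, PRDX5, had a p under 0.05 and was higher (1.98% of all genes). SLC7A11 was the 1 such lower gene (2.05% of all genes). PRDX5, a peroxiredoxin, had a log2 fold change of 0.22 (SE 0.0997), and TXNRD2, the mitochondrial thioredoxin reductase, 0.16 (SE 0.106). Of 16 other suppressors of ferroptosis, 0 passed in either direction, and the median was -0.02. The lowest p after SLC7A11 were those of MBOAT2, a phospholipid acyltransferase gene, at 0.16 (SE 0.0938), and GCH1, which begins tetrahydrobiopterin synthesis, at -0.21 (SE 0.182). Of 17 genes that promote or mark ferroptosis, 14 were tested and 0 passed in either direction, with a median of -0.03. TFRC, the polyamine acetyltransferase SAT1 and the acyl-CoA ligase ACSL4 had log2 fold changes of -0.11 (SE 0.0957), -0.14 (SE 0.13) and 0.09 (SE 0.0947). The lipoxygenase genes ALOX5, ALOX15 and ALOX15B were too low to test.

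Of 20 genes of iron handling, 19 were tested and 0 passed in either direction. Of the 19, 8 lay above 0 (50.8% of all genes) and 11 below, with a median of -0.05. SLC39A14, a carrier of zinc and iron, had a log2 fold change of 0.25 (SE 0.106). The ferric reductase gene CYBRD1 was at -0.75 (SE 0.375), but at -0.42 without replicate 2 labelled knockdown and at -1.28 without replicate 3 labelled knockdown. IREB2, whose product binds ferritin and transferrin receptor transcripts, was at -0.15 (SE 0.0764). All 7 genes that make or insert selenocysteine were tested and 0 passed in either direction, with a median of -0.0046 and a range from -0.12 to 0.02. SECISBP2, SEPSECS and SEPHS1 had the lowest p among them. Some genes stand in several of these lists, SLC7A11 in 3.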

How the data were processed

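RNA was measured in 3 control and 3 libraries labelled NNMT knockdown, as poly(A) RNA read in pairs of 150 bases, per the labels' protocols. The authors deposited raw read counts per gene, made with featureCounts 2.0.6 on hg38 with GENCODE 44, per the file headers. The aligner and its version are not given in the sources used here. Multi-mapping and multi-gene reads were not counted and no strand option was set, per the file headers. Mates appear to have been counted singly: 73.4% to 76.7% of counts from 2 to 10 were even, so a read is not an independent fragment. The other deposited column used was exon length, per the file headers.

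All 62700 identifiers matched a symbol. The 10 genes and all gene lists were chosen with earlier results of these data known. edgeR 4.0.16 (R 4.3.3) tested 20250 genes after filterByExpr, with TMM scaling, robust dispersion and group as the sole term; DESeq2 1.42.0 and limma 3.58.1 were alternatives, with other scalings and filters, halved counts, a replicate block and leaving out each library. Adjustment was Benjamini-Hochberg at 0.05. Intervals are 95%, from the quasi-likelihood fit. Named beside the 10 genes were NNMT, FTL, the AKR1C genes, up to 3 genes of lowest p per list and the 3 most abundant ferritin pseudogenes; COL1A1 and the ratios were chosen after their values were seen. The test was checked on simulated counts with known changes, set in genes at 20 CPM or more. It called 10.3% of 204 genes changed 1.3-fold, 64.9% of 205 changed 1.5-fold and 97.9% of 191 changed 2-fold. Each simulated table held 200 changed genes. With adjustment over all genes, the share called depends on how many genes change. The main test called 0 of 20250, so these shares may be too high for these data. There were 36 false calls in the 3 simulations, a larger share of all calls than the 0.05 aimed at.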

Additional observations from a re-analysis of the deposited data

How the results depend on the processing

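None of the 10 genes passed under any alternative run, and each kept its direction under all alternatives that used the 6 libraries. The number of genes called over the whole table was 0 in the main test, 72 without a filter on low counts and 8 in DESeq2, and 0 to 1 when a library was left out, the 1 arising without control replicate 3. The median log2 fold change of the 10 ran from -0.00889 to 0.102 when a library was left out, against 0.0527. Of 60 fits of single genes with a library left out, 51 kept their direction. Signs changed within -0.0126 to 0.0813 for KEAP1, -0.167 to 0.101 for HMOX1, -0.0439 to 0.118 for TXNRD1, -0.0277 to 0.108 for GPX4, -0.166 to 0.0712 for SEPHS1 and -0.244 to 0.149 for AKR1C3; the cause was not tested beyond the smaller number of libraries. The log2 fold change of SRXN1 ran from 0.167, without replicate 2 labelled knockdown, to 0.664. Single libraries also moved the values of NQO1 (0.0324 to 0.287), GCLC (0.0353 to 0.208), GCLM (-0.224 to -0.0594), CYBRD1 (-1.28 to -0.417), GCH1 (-0.331 to -0.0978), SAT1 (-0.298 to -0.0147), MBOAT2 (0.0695 to 0.21), MAFG (-0.259 to -0.13), PRDX5 (0.144 to 0.298), SLC39A14 (0.154 to 0.344), SLC7A11 (-0.484 to -0.241) and TXNRD2 (0.0839 to 0.231) by over 1.5 times without a change of sign. The same held for NFE2L2 (-0.168 to -0.0262), TFRC (-0.176 to -0.0295), ACSL4 (0.00822 to 0.139), SECISBP2 (-0.205 to -0.0204) and SEPSECS (-0.163 to -0.0637). The 4 ratios kept their direction when any library was left out, an alternative chosen after seeing the data. For KEAP1 to NFE2L2, FTL to FTH1 and FTH1 to TFRC no other outcome was possible, since their groups did not overlap. Only the ratio of GCLC to GCLM could have changed direction. Same-numbered replicates did not pair consistently: their deviations correlated at 0.0622, -0.139 and 0.278 for numbers 1, 2 and 3. The last was the highest of all pairs across the groups. Next was control replicate 1 with replicate 2 labelled knockdown, at 0.241. With 3 libraries per group these values cannot settle whether the replicates were paired. With the replicate number as a block 0 genes were called, and FTH1 was at 0.338. Reads could not be added from GPX4 pseudogenes, since no row bears that name. At the depth of SRXN1 the interval of its fold ran from 0.961 to 2.11, so a doubling could not be told from no change.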
